A study of Mus musculus with 3 samples.

Results

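The genes described here are 9 genes of fatty acid oxidation, chosen by name: Ppara, Cpt1b, Cpt2, Slc25a20, Acadm, Acadvl, Hadha, Hadhb and Acot11. Of these 9, 8 were analysed among 23041 to 23364 genes per library, and Cpt1b was not analysed here. The rule uses the names alone, though results of these data were known when the genes were chosen. Mitochondrial fatty acid oxidation is the route by which brown adipocytes (BAs) burn lipid to feed the uncoupled respiratory chain. A long-chain acyl-CoA is handed to carnitine, carried across the inner mitochondrial membrane, handed back to coenzyme A and then shortened in repeated cycles of dehydrogenation, hydration, dehydrogenation and thiolysis. PPARα, the product of Ppara, is a nuclear receptor that binds fatty acids and activates genes of this route.

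Single-nucleus RNA sequencing was carried out on the floating layer of digested interscapular brown adipose tissue (BAT), which holds BAs and pieces of vessels. There were 3 libraries of adult male C57BL/6J mice, labelled as wild type: untreated BAT, BAT labelled as sham operated, and denervated BAT. The mice were 8 weeks old, and the untreated and the denervated library each pooled nuclei of 20 mice. Denervation cut the sympathetic nerves of 1 side, the tissue was taken after 3 days, and the study's diagram of that library also shows tamoxifen. The header of the denervated table carries a run name with the letters nKO, while its label gives the genotype as WT, and this was not resolved. How many mice the sham library held, and whether its tissue was the opposite side of denervated mice, is not stated in the sources used here. With 1 library per condition, condition and library cannot be told apart and no test was made. Levels are given as CPM, the unique molecular identifiers (UMIs) of a gene per 1000000 UMIs of a class of nuclei, and all 95% intervals, given as ranges in parentheses, cover counting error only.

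After filtering, 10806 untreated, 12318 sham and 9733 denervated nuclei remained, with a median of 947, 743 and 677 UMIs. Libraries shared 251 to 278 barcodes in pairs. Clusters made without the members and the other genes of the pathway were named from marker genes. BA-like nuclei numbered 4403, 2399 and 4903 in the untreated, sham and denervated library, with a median of 1800, 1471 and 892 UMIs. In these nuclei Ucp1, the uncoupling protein that defines BAs, had 344, 403 and 309 CPM, against 92.2, 72.1 and 150 in endothelial-like (EC-like) nuclei. The denervated library had the shallowest BA-like nuclei and the lowest mitochondrial share. The sham library differed from the others in the following ways. Mitochondrial genes took 12.9% of its UMIs, against 6.71% and 2.95% in the untreated and denervated libraries. Doublets made up 12.2% of its filtered barcodes, against 8.36% and 6.97%. Its table has no header that names the counting pipeline. Its white adipocyte-like (WA-like) cluster of 1910 nuclei also had BA markers, with 264 CPM of Ucp1 against 79.5 and 90.4 in the WA-like nuclei of the other libraries, and values of this cluster are given as those of a mixture.

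Hadha and Hadhb encode the α and β subunits of the mitochondrial trifunctional protein, which catalyses the last steps of the cycle for long chains. The genes lie back to back on chromosome 5 of GRCm38, Hadha on the minus strand from 30118304 to 30155162 and Hadhb on the plus strand from 30155248 to 30184593. The 85 bases between their annotated starts are shown because both genes are read outwards from them, with GC boxes (GGGCGG, searched on both strands) in capitals. The sequence is that of RefSeq on GRCm38, plus strand, chr5:30155163-30155247.

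Hadha to Hadhb: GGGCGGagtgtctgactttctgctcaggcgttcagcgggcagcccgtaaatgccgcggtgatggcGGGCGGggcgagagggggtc

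A window of 300 bases around a RefSeq start was found for all 8 genes, with 2 windows for Acot11. GC boxes were present in 6 of the 9 windows and in 35.7% of all 32851 windows of this length. The windows of Hadha and Hadhb overlap, and the only GC box of the Hadha window is also counted in that of Hadhb. The paired site bound by PPARα with its partner RXR, searched on both strands as AGGTCA written 2 times with 1 base between, matched 0 of the 9 windows and 0.0396% of all windows. A single half-site (AGGTCA, both strands), which is a part of the paired motif, was present in the windows of Acadm and Acadvl and in 16.3% of all windows. The element of the ERR receptors (TCAAGGTCA, both strands, which holds a half-site) also matched 0 of the 9 and 0.423% of all windows. The motif of NRF1, a regulator of nuclear genes for mitochondrial proteins shown in capitals below and searched on both strands, was present in the Ppara window and in 0.971% of all windows. It lies 21 bases before an annotated exon start of Ppara, in a stretch between annotated exons on chromosome 15. This stretch is shown because Ppara is the member that differed most between the denervated and untreated libraries, with the NRF1 motif in capitals, plus strand, chr15:85735714-85735775.

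Ppara: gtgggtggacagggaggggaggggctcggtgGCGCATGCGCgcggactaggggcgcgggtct

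In BA-like nuclei the 8 genes together took 4618 CPM in the untreated library (4571 to 4666), 5012 in the sham library (4939 to 5087) and 4853 in the denervated library (4791 to 4914). The summed level thus differed little between libraries, while single genes differed more.

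Ppara, on chromosome 15 from 85734983 to 85802819, had 876 CPM in untreated BA-like nuclei (855 to 897), 1684 in sham (1642 to 1728) and 1469 in denervated nuclei (1435 to 1503). The untreated library was the lowest and the intervals of the 3 libraries did not overlap. Its UMIs were found in 61.2%, 76.2% and 56.8% of untreated, sham and denervated BA-like nuclei. When every nucleus was thinned to 800 UMIs, these shares became 43.5%, 65.7% and 54.7%, in the order of the levels. Thinning left out 358, 261 and 2000 shallower nuclei. In EC-like nuclei thinned alike, the shares were 2.57%, 3.45% and 28.4%, the last over only 299 nuclei. Without thinning, the denervated share was 9.14% of 2701 EC-like nuclei. The adipocyte marker Plin1 was found in 31.8% of the 299 thinned denervated nuclei and in 11.7% of all 2701.

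Slc25a20, the carrier that exchanges acylcarnitine for carnitine across the inner membrane, lies on chromosome 9 from 108662088 to 108684641. It had 444 (429 to 459), 405 (384 to 426) and 515 CPM (496 to 536) in untreated, sham and denervated BA-like nuclei. Cpt2, which rebuilds acyl-CoA on the matrix side, lies on chromosome 4 from 107903981 to 107923610. Its levels were 116 (109 to 124), 165 (152 to 179) and 127 CPM (117 to 137) in the same order. The denervated library was the highest for the carrier, and the sham library was the highest for Cpt2.

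Acadvl and Acadm encode the acyl-CoA dehydrogenases for very long and medium chains, which open each cycle. Acadvl, on chromosome 11 from 70010183 to 70015411, had 409 (395 to 424), 305 (287 to 324) and 377 CPM (360 to 394) in untreated, sham and denervated BA-like nuclei. Acadm, on chromosome 3 from 153922357 to 153944632, had 370 (357 to 384), 793 (764 to 823) and 362 CPM (346 to 380). The untreated and denervated intervals of Acadm overlapped, and the sham level was more than 2-fold above both. The enzymes of the opening step thus had opposite orders in the sham library, Acadvl at its lowest and Acadm at its highest.

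Hadha had 628 (610 to 645), 642 (616 to 669) and 498 CPM (478 to 518), and Hadhb had 679 (661 to 697), 597 (572 to 624) and 667 (645 to 690). The denervated library was the lowest for the α subunit, and the sham library was the lowest for the β subunit. Acot11, also called Them1, is an acyl-CoA thioesterase that splits long-chain acyl-CoA into free fatty acid and coenzyme A, and in BAs it is known to restrain the oxidation of fatty acids. It lies on chromosome 4 from 106744555 to 106804998. Its level was 1097 CPM in untreated BA-like nuclei (1074 to 1120), 421 in sham (400 to 443) and 838 in denervated nuclei (813 to 864). The shares of thinned BA-like nuclei with an Acot11 UMI had the same order, 52.2%, 25.1% and 43.1%. In thinned EC-like nuclei the shares were 4.67%, 1.84% and 19.1%, the last over only 299 nuclei. Without thinning, 6.18% of denervated EC-like nuclei had an Acot11 UMI.

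**Figure D1:**
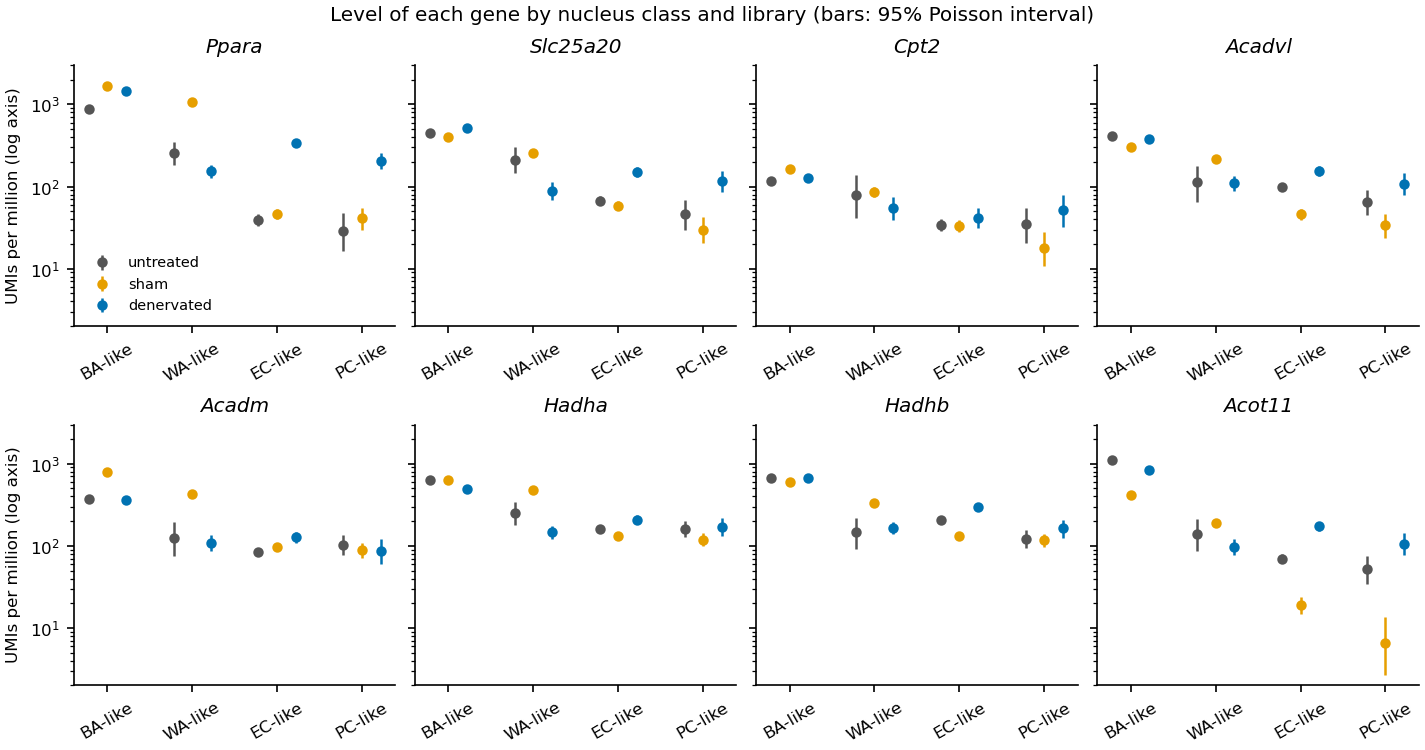
Level of each gene in CPM (log axis) in BA-like, WA-like, EC-like and pericyte-like (PC-like) nuclei, 1 panel per gene and 1 colour per library; points are sums over nuclei and bars the 95% Poisson interval, hidden by the point where narrow. BA-like nuclei have the highest level of each gene in each library, and Ppara in EC-like nuclei is 338 CPM in the denervated library against 39.0 and 46.5 in the others.

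The order of the genes by level depended on the scale. In CPM as counted, Acot11 led the untreated BA-like nuclei with 1097, followed by Ppara with 876. Per kilobase of exon, Ppara led the untreated BA-like nuclei with 228 CPM, followed by Acot11 with 181, Acadvl with 152, Hadhb with 103, Acadm with 94.6, Slc25a20 with 91.6, Hadha with 71.9 and Cpt2 with 48.7. Acadm and Slc25a20 did not differ beyond their intervals. Per kilobase of the whole gene, introns included, Acadvl led with 78.3 and Ppara came seventh with 12.9. Nuclei hold unspliced RNA and the capture is at poly(A), so neither length fits all molecules. Cpt2 was the last in the untreated library on each of these scales. Several members share bases with another annotated gene. Acadvl overlaps Dvl2, Hadha overlaps Garem2 and Acot11 overlaps Fam151a and Gm12745 on the opposite strand. Acadvl also overlaps Mir324 on the opposite strand and Hadhb overlaps Mir1960 on its own strand. The part of these genes in the counts was not tested.

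The comparison of denervated with untreated BAT holds loss of sympathetic input together with the operation, the library and the tamoxifen of the diagram. These cannot be told apart. In BA-like nuclei 0 of the 8 genes differed by 2-fold, where 1.16% of 7214 genes tested were at least 2-fold higher and 0.347% at least 2-fold lower. Past 1.5-fold only Ppara was higher, with 5.43% of all genes higher and 3.73% lower, and it was just under 1.5-fold with brown and white adipocyte-like clusters together (0.58). The log2 ratio of denervated over untreated was 0.75 for Ppara (0.70 to 0.79) and 0.22 for Slc25a20 (0.14 to 0.29). It was 0.12 for Cpt2 (-0.02 to 0.27), -0.02 for Hadhb (-0.09 to 0.04) and -0.03 for Acadm (-0.12 to 0.05), intervals that include 0. Acadvl was lower by a log2 ratio of -0.12 (-0.20 to -0.04), Hadha by -0.33 (-0.41 to -0.26) and Acot11 by -0.39 (-0.44 to -0.33). The median over the members was -0.03 (-0.10 to 0.05), beside -0.02 over all genes. Ucp1 itself had a log2 ratio of -0.15 (-0.25 to -0.06). Over 13 alternative settings the ratio of Ppara was between 0.58 and 0.81 and that of Acot11 between -0.55 and -0.32.

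Against the sham library, which is the operated control, the denervated BA-like nuclei gave another order. Acadm was the only member at least 2-fold lower, with a log2 ratio of -1.13 (-1.22 to -1.04), where 7.95% of 7322 genes were at least 2-fold lower and 7.74% at least 2-fold higher. It was under 2-fold with classes taken from marker UMIs (-0.90) and with brown and white adipocyte-like clusters together (-0.98). Acot11 was 0.99 higher (0.91 to 1.08), at the edge of 2-fold. The other 6 genes were between -0.38 and 0.35, with Ppara at -0.20 (-0.25 to -0.15). This comparison and the last share the denervated library. Ppara was higher in denervated than in untreated nuclei and lower in denervated than in sham nuclei.

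Sham and untreated BAT are both innervated, but their comparison holds the operation together with the library. These cannot be told apart, so the comparison is not a measure of the spread between like libraries. In BA-like nuclei 7.63% of 7350 genes were at least 2-fold higher in the sham library and 6.76% at least 2-fold lower, and of the members 1 was higher and 1 lower. Acadm had a log2 ratio of 1.10 (1.02 to 1.17) and Acot11 of -1.38 (-1.46 to -1.30). Ppara was 0.94 higher (0.89 to 0.99) and Cpt2 0.51 higher (0.35 to 0.66), and Acadvl was lower with -0.42 (-0.53 to -0.32). Acot11 was thus lowest where Acadm and Ppara were highest. Each of these differences kept its direction under all 13 alternatives, but Acadm was under 2-fold with classes from marker UMIs (0.81) and with brown and white adipocyte-like clusters together (0.82), while Acot11 ranged from -1.72 to -1.33. For Ppara, Cpt2, Acadm, Acadvl, Hadhb and Acot11 the sham library differed from the untreated library more than the denervated library did. For Slc25a20 and Hadha the denervated library differed more.

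**Figure D2:**
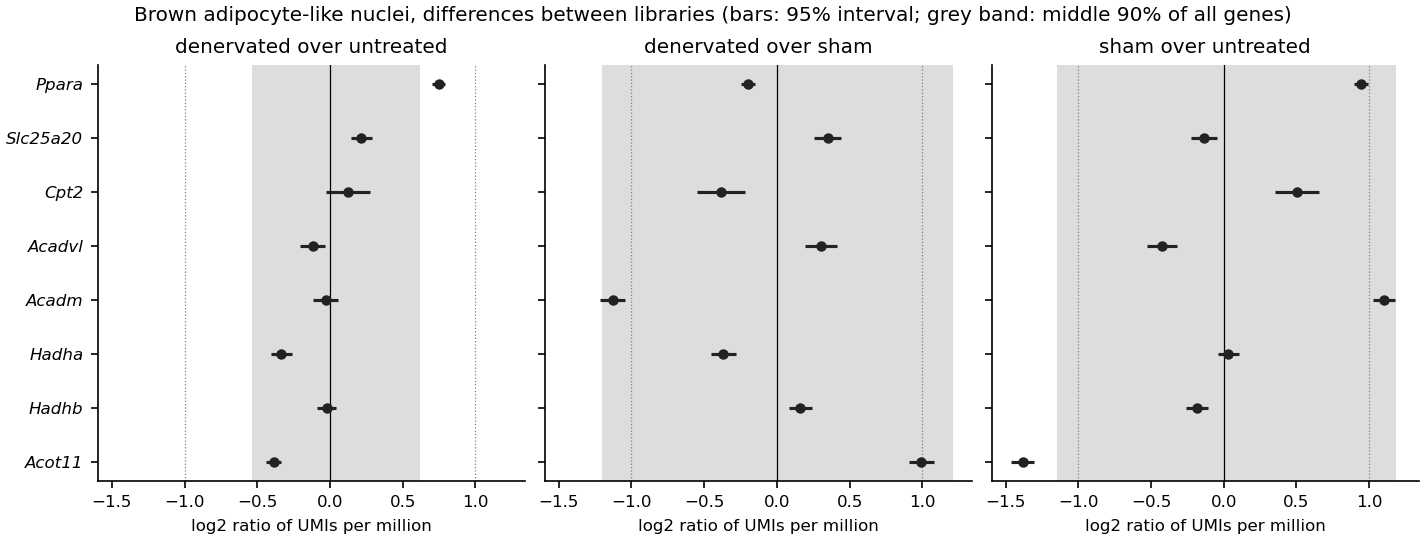
Log2 ratio of CPM in BA-like nuclei for each gene, in 3 panels for the 3 pairs of libraries; points are ratios, bars the 95% conditional binomial interval, dotted lines 2-fold and the grey band the middle 90% of all genes tested. In the first panel only Ppara, at 0.75, lies outside the band, and in the third only Acot11, at -1.38.

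Genes of other lists of the pathway placed these differences among 64 further genes with at least 20 CPM on average. Denervated over untreated, 0 of the 64 were at least 2-fold higher and 1 was at least 2-fold lower, against 1.16% and 0.347% of all genes, with a median log2 ratio of 0.08. That 1 gene was Ucp3, a mitochondrial carrier protein whose gene is known to be activated by fatty acids through PPARs. Ucp3 had 181 CPM in untreated, 170 in sham and 81.7 in denervated BA-like nuclei, a log2 ratio of -1.15 against untreated (-1.31 to -0.99) and of -1.06 against sham (-1.24 to -0.87). It was lower in the denervated library than in both others, which differed from each other by -0.09 (-0.23 to 0.05). Among these regulators and PPAR target genes, Lpin1, a phosphatidate phosphatase and coactivator, was lower by -0.31 (-0.36 to -0.27). The highest of that list were Plin5, a lipid droplet coat protein that ties droplets to mitochondria, with 0.54 (0.38 to 0.69), and Fabp3, a fatty acid binding protein, with 0.51 (0.35 to 0.67).

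The lists of enzymes gave these values for denervated over untreated BA-like nuclei. Mitochondrial β-oxidation had 0 of 15 genes past 1.5-fold, where 5.43% of all genes were higher and 3.73% lower, from -0.17 for Eci1 and -0.16 for Etfdh to 0.37 for Echs1 and 0.45 for Acads (0.29 to 0.62), the dehydrogenase of short chains. In activation and carnitine shuttle, 0 of 11 passed 1.5-fold, from -0.41 for the acyl-CoA synthetases Acsl3 and Acsl4 to 0.34 for Slc27a1, a fatty acid transport protein, and 0.39 for Crat, which acetylates carnitine. Peroxisomal genes, with 1 of 12 lower past 1.5-fold, ran from -0.60 for Crot (-0.94 to -0.27) and -0.52 for Pex11a to 0.45 for Acaa1b and 0.57 for Acaa1a, the peroxisomal thiolases. Among 5 other thioesterases, with 1 lower past 1.5-fold, the range was from -0.68 for Acot2 (-1.07 to -0.31) and -0.20 for Acot13 to 0.16 for Acot9 and 0.40 for Acot7. Of the ketone body genes, Acat1 was at 0.09 and Oxct1 at 0.40.

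Sham over untreated, 16 of the 64 genes (25%) were at least 2-fold higher and 3 (4.69%) at least 2-fold lower, against 7.63% and 6.76% of all genes, with a median log2 ratio of 0.45 where that of all genes was 0.01. In the same BA-like nuclei 6 genes known from adipocytes (Adipoq, Plin1, Cidec, Adrb3, Acvr1c and Lipe) had a median of 0.53 and ran from -0.26 to 1.57, and their part in the values of the lists was not tested. By list the higher genes were 4 of 13 peroxisomal genes, 3 of 15 of mitochondrial β-oxidation, 3 of 11 of activation and carnitine shuttle, 2 of 3 ketone body genes, 1 of 4 thioesterases and 3 of 18 regulators and targets. Among the genes the lists above already named, Acaa1b had 32.2 CPM in untreated and 113 in sham nuclei, a log2 ratio of 1.81 (1.58 to 2.05). Slc27a1 had 163 and 524, Crat 194 and 478, and Oxct1, which activates ketone bodies, 89.7 and 183. Acsl3 lay the other way, with 119 CPM in untreated and 19.6 in sham nuclei, a log2 ratio of -2.60 (-2.98 to -2.25). Some further genes were picked after their values were seen. Ehhadh, the peroxisomal bifunctional enzyme, had 39.9 CPM in untreated, 191 in sham and 28.9 in denervated nuclei. Pdk4, the kinase that holds back pyruvate oxidation, had 513, 1287 and 480, and Angptl4, an inhibitor of lipoprotein lipase, had 49.5 in untreated and 263 in sham nuclei. The acyl-CoA synthetase Acsl5 was lower, with 507 in untreated and 116 in sham nuclei, as was the dehydrogenase Hadh, with 623 and 286.

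Denervated over sham, 3 of the 64 genes (4.69%) were at least 2-fold higher and 13 (20.3%) at least 2-fold lower, against 7.74% and 7.95% of all genes, with a median log2 ratio of -0.42 where that of all genes was -0.03. By list the lower genes were 4 of 13 peroxisomal genes, 4 of 18 regulators and targets, 3 of 11 of activation and carnitine shuttle and 2 of 15 of mitochondrial β-oxidation. This comparison shares the sham library with the one above and the denervated library with the first.

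**Figure D3:**
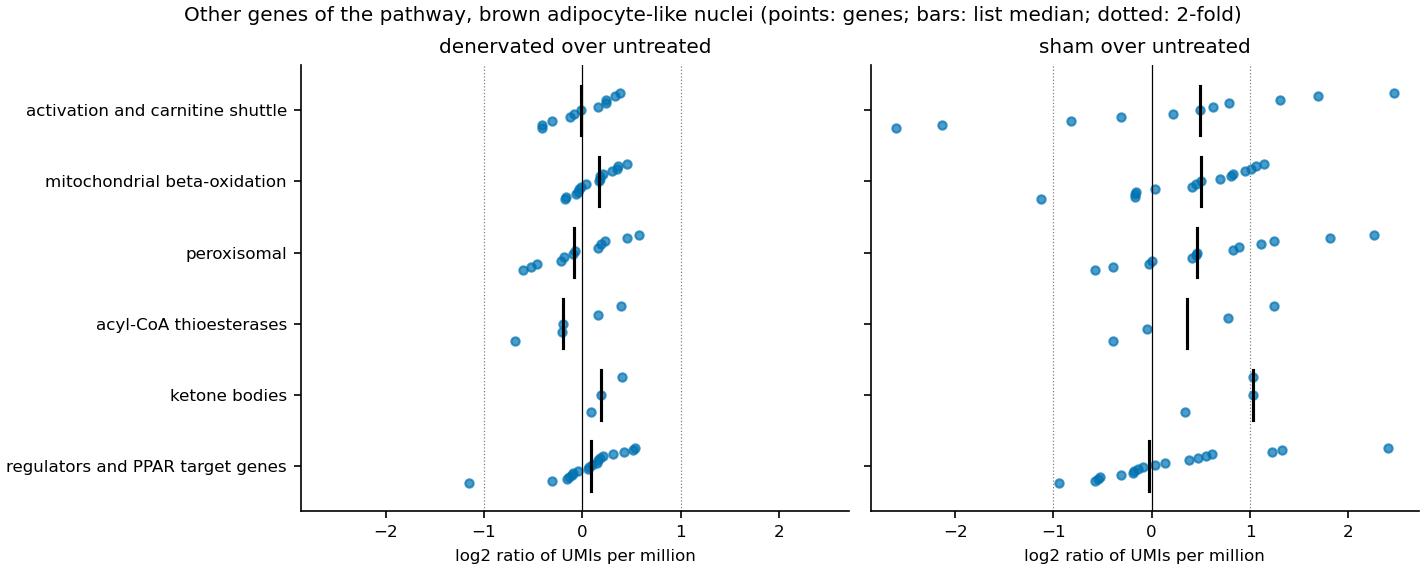
Log2 ratio of CPM in BA-like nuclei for 6 lists of other genes of the pathway (points, 1 per gene; black bars, list median), denervated over untreated on the left and sham over untreated on the right, with dotted lines at 2-fold. On the left 1 of the 64 points, Ucp3 at -1.15, lies past 2-fold, and on the right 19 do.

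All 8 genes were at least 2-fold higher in BA-like than in EC-like nuclei of the same library, in each of the 3 libraries. In the denervated library 4 of these calls were lost under an alternative, with Slc25a20 at 0.92, Hadha at 0.65, Hadhb at 0.97 and Acadvl at 0.99 after thinning to 800 UMIs. At least 2-fold higher were also 24.6%, 26.2% and 16.7% of all genes tested in the untreated, sham and denervated library. The median log2 ratio of the members was 2.10 (1.94 to 2.26), 2.76 (2.54 to 2.99) and 1.55 (1.24 to 1.87), beside 0.19, 0.17 and 0.08 over all genes. With ambient RNA subtracted the medians were 3.24, 3.67 and 3.43, and after thinning the denervated median was 0.999. The subtraction left no Ppara or Acot11 UMI in EC-like nuclei, so both genes entered its medians as the highest ratios. It sets genes as biased to adipocytes as the markers to 0, so no conclusion is drawn from the subtracted medians. Ppara and Acot11 had the largest ratios, 4.49 and 3.98 in untreated, 5.18 and 4.46 in sham and 2.12 and 2.28 in denervated BAT. Hadhb had the smallest, with 1.70, 2.16 and 1.18. Of the other genes of the pathway, 42 of 62, 49 of 65 and 33 of 61 tested were at least 2-fold higher in BA-like nuclei.

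Genes known from adipocytes, called adipocyte-only here, were used as a guide to the adipocyte RNA counted in EC-like nuclei. Adipoq, Plin1, Cidec, Adrb3, Acvr1c and Lipe had a median of 7.69% of their BA-like level in EC-like nuclei of the untreated library (range 5.50% to 24.99%), 5.70% in sham (3.14% to 23.6%) and 25.9% in denervated (21.4% to 40.3%). Ppara was at 4.45%, 2.76% and 23.0% of its BA-like level and Acot11 at 6.35%, 4.55% and 20.6%, at or below the medians of these 6 genes. The other 6 members were above those medians in every library. In the untreated library Hadhb at 30.8%, Cpt2 at 29.2% and Hadha at 25.7% were above the whole range. The adipocyte-only genes were among the markers used to remove doublets and to name classes, and the members were not. The part of this in these differences was not tested. In the sham library no member was above the whole range, but Lipe alone set its top of 23.6%. The next gene there was Adipoq at 14.02%. Cpt2 at 20.1%, Hadha at 20.8% and Hadhb at 22.3% lay between Adipoq and Lipe. Slc25a20 and Acadvl did too, with intervals that overlap that of Adipoq. In sham PC-like nuclei Lipe was at 4.58% and Adipoq at 7.93% of the BA-like level, and the cause was not tested. In the denervated library Acadvl at 41.4%, Hadha at 42.0% and Hadhb at 44.0% were above the whole range. Adipoq was the highest adipocyte-only gene of the untreated (21.5% to 29.0%) and denervated library (31.9% to 50.2%). Its interval there overlaps that of each member above the range.

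**Figure D4:**
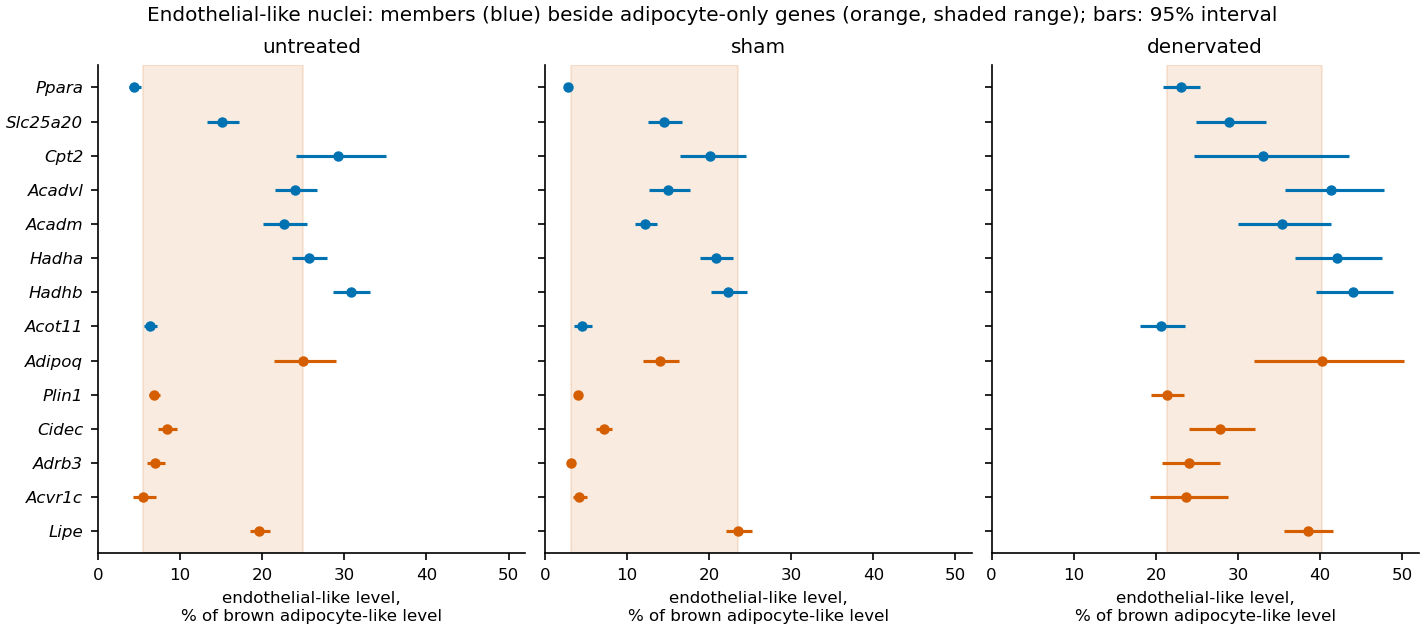
Level in EC-like nuclei as a percent of the level in BA-like nuclei of the same library, for the 8 genes (blue) and 6 adipocyte-only genes (orange, range shaded), with 95% intervals. Ppara and Acot11 lie near the lower edge of the shaded range in each library, and the range itself runs from 21.4% to 40.3% in the denervated library.

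Between libraries, 7 of the 8 genes were higher in denervated than in untreated EC-like nuclei with an interval above 0, and Cpt2 had 0.30 (-0.18 to 0.76). The log2 ratio was 3.12 for Ppara (2.85 to 3.4), 1.31 for Acot11 (1.05 to 1.57), 1.15 for Slc25a20 (0.87 to 1.42) and between 0.38 and 0.67 for 4 others, so that 3 of 8 passed 2-fold where 7.35% of all genes were higher and 1.1% lower. Denervated over sham, 5 of 8 passed 2-fold (10.7% of all genes higher, 3.95% lower), and sham over untreated 0 were higher and 2 lower, Acot11 and Acadvl (2.12% higher, 2.43% lower). The adipocyte-only genes moved with them. Their log2 ratios in EC-like nuclei had a median of 1.51 and ran from 0.36 to 2.24, while in BA-like nuclei they had a median of -0.05. Plin1, the main coat protein of adipocyte droplets, went from 111 to 348 CPM. The part of adipocyte RNA in the ratios of the members was not tested. Subtraction of ambient RNA counted the UMIs of the adipocyte naming markers in EC-like nuclei as ambient. This gave an ambient share of 20.6%, 16.4% and 39.8% of EC-like UMIs in the untreated, sham and denervated library. No Ppara or Acot11 UMI was then left in EC-like nuclei of any library. Genes as biased to adipocytes as the markers are set to 0 by this rule, so no conclusion is drawn from it.

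All 8 genes were also at least 2-fold higher in BA-like than in PC-like nuclei of each library, with medians of 2.56, 3.20 and 2.05, where 19.7%, 21.1% and 16.7% of all genes were. In WA-like nuclei the 8 genes together had 1325 CPM in the untreated library (1148 to 1522), from 118 nuclei, and 925 in the denervated library (859 to 995). These sums were below the BA-like sums of 4618 and 4853. In untreated BAT 7 of 8 genes were at least 2-fold higher in BA-like than in WA-like nuclei, and in denervated BAT 8 of 8, where 22.6% and 18.6% of all genes were. Ppara had 258 CPM in untreated and 154 in denervated WA-like nuclei, and Acot11 had 139 and 98.0. The mixed WA-like cluster of the sham library had 3065 (2996 to 3136), and 1 of 8 genes, Acot11, was 2-fold higher in BA-like nuclei there, where 4.32% of all genes were.

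Within BA-like nuclei, a cluster led by heat shock genes was found in the untreated library (726 nuclei) and in the denervated library (1688 nuclei). Hspa1a, the inducible HSP70, had 3429 CPM in that cluster and 101 in the largest BA-like cluster of the untreated library, and 1917 and 121 in the denervated library. The median log2 ratio of the members in the heat-shock-led cluster over the other BA-like nuclei was -0.32 in the untreated and -0.39 in the denervated library, beside -0.07 and -0.06 over all genes. In the untreated library the ratios below 0 ran from -0.88 for Cpt2 (-1.28 to -0.50) and -0.56 for Hadhb (-0.70 to -0.42) to -0.23 for Acadvl. Slc25a20 with 0.41 (0.27 to 0.54) and Ppara with 0.19 (0.09 to 0.30) were higher. In the denervated library the ratios below 0 ran from -1.10 for Hadhb (-1.25 to -0.96) and -0.82 for Cpt2 to -0.17 for Ppara, and Slc25a20 was level at 0.01 (-0.12 to 0.14). Hadhb in the denervated library was the only member past 2-fold, where 3.14% and 4.11% of all genes were at least 2-fold lower in the heat-shock-led cluster of the untreated and denervated library and 1.2% and 1.43% at least 2-fold higher. Ucp1 was also lower there, with 243 against 357 CPM in the untreated and 138 against 366 in the denervated library. Pdk4 was higher, with 1197 against 426 CPM in the untreated and 708 against 405 in the denervated library. The heat-shock-led clusters were shallower than the largest BA-like clusters, with medians of 1155 against 1923 and 675 against 1081 UMIs. The sham library had 1 BA-like cluster, with 76.7 CPM of Hspa1a. WA-like nuclei had 2418, 2579 and 1312 CPM of Hspa1a in the untreated, sham and denervated library, and the part of this in their levels was not tested.

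The study is about Kit, the receptor of stem cell factor, on BAs. Kit had 317 CPM in untreated, 38.1 in sham and 194 in denervated BA-like nuclei, with a UMI in 37.6%, 4.84% and 15.9% of them, not corrected for depth. BA-like nuclei with and without a Kit UMI were compared after matching on UMIs per nucleus, with 779 nuclei on each side in the denervated library, 1517 in the untreated and 116 in the sham library. The median log2 ratio of the 8 genes was -0.02 in the denervated (-0.19 to 0.17), 0.01 in the untreated (-0.11 to 0.13) and 0.06 in the sham library (-0.35 to 0.48). Of the members 0 passed 2-fold in any library, where 0.506%, 0% and 9.07% of all genes were at least 2-fold higher in the denervated, untreated and sham library and 0.465%, 0.0138% and 7.17% at least 2-fold lower. Acot11 was the only member with an interval above 0. In the denervated library it had 978 CPM in nuclei with a Kit UMI and 817 in those without, a log2 ratio of 0.26 (0.12 to 0.40), and in the untreated library 1131 and 1068, a ratio of 0.08 (0.01 to 0.15). With at least 2 Kit UMIs these ratios were 0.07 (-0.24 to 0.38) and 0.21 (0.10 to 0.31), and the sham library had too few such nuclei. Cpt2 in the denervated library was at -0.18 (-0.53 to 0.17) with 1 Kit UMI or more and at 0.95 (0.06 to 1.88) with at least 2.

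**Figure D5:**
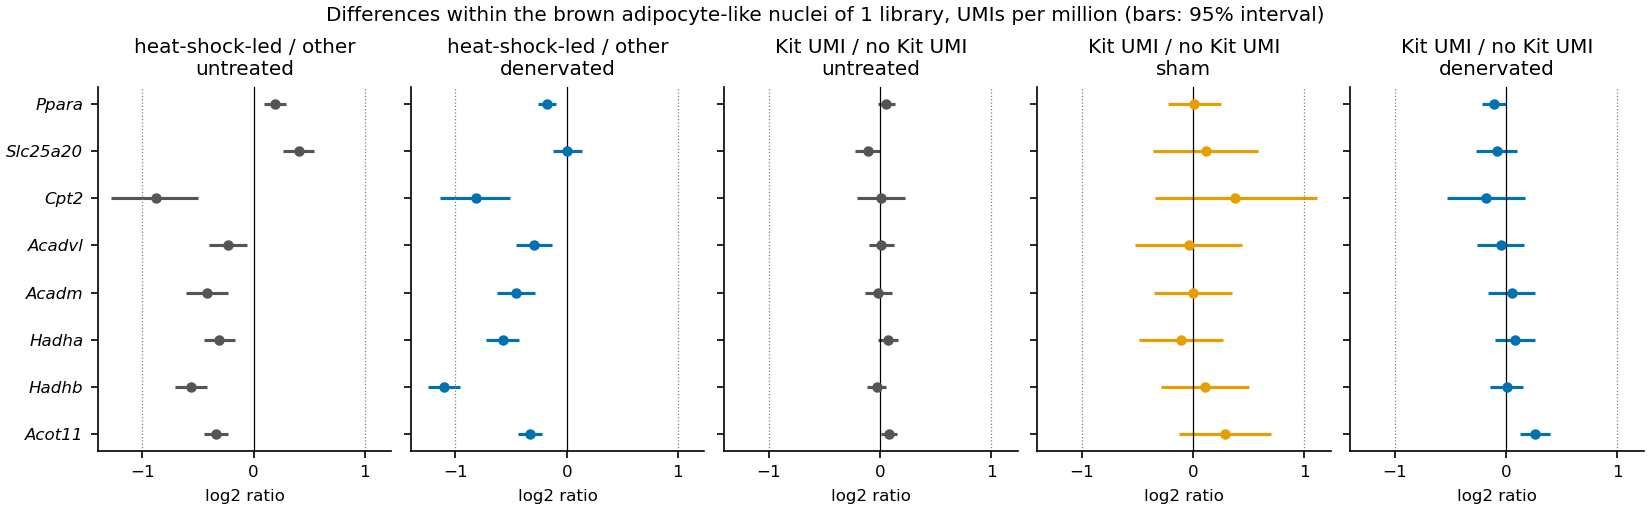
Log2 ratio of CPM within BA-like nuclei of 1 library, for the heat-shock-led cluster over the other BA-like nuclei (first 2 panels) and for nuclei with a Kit UMI over matched nuclei without one (last 3 panels), with 95% intervals and dotted lines at 2-fold. Hadhb in the denervated heat-shock-led cluster, at -1.10, is the only point past 2-fold.

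Over 20 profiles of a class in a library, genes most like the mean of the 8 members included Akap1, an anchor of protein kinase A on the outer mitochondrial membrane, with a Pearson r of 0.960, and Acacb, whose product makes the malonyl-CoA that holds back carnitine transfer (0.958). Acadl, the long-chain dehydrogenase (0.946), and Sucla2 of the citric acid cycle (0.945) were also among the 5 highest of 8403 genes ranked. These r describe profiles that share libraries and depth. Each member set against the mean of the other members had an r from 0.697 for Cpt2 to 0.933 for Acadvl. In untreated, sham and denervated BA-like nuclei Acacb had 1357, 1905 and 1609 CPM and Acadl 628, 644 and 646. Acadl, unlike Acadm, was nearly level over the libraries.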

How the data were processed

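As deposited, the tables hold raw UMI counts for each nucleus and gene. Per the file headers, the untreated and denervated counts come from the BD Rhapsody pipeline on GRCm38 with mouse GENCODE release 19. The sham table carries no header, and the submitters' processing notes also name GRCh38 and Seurat 4.0.6. The libraries held 14971579, 14725864 and 9420030 UMIs in 13707, 15368 and 15822 barcodes (untreated, sham, denervated).

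Kept were barcodes of 200 or more genes and no more than 50% mitochondrial UMIs. Doublets (986, 1709 and 729) had 3 or more UMIs of 2 exclusive marker lists, the smaller sum 25% or more of the larger. Each library was clustered alone (2000 variable genes, 30 components, 20 neighbours, Louvain resolution 0.5) without members, pathway genes and mitochondrial genes. Classes were named from marker lists and may differ from those of the study.

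UMIs were summed per class. Intervals are exact Poisson for CPM, exact binomial for shares and exact conditional binomial for ratios, at 95%. The interval of a median is the median of the members' bounds. Genes with a mean of at least 20 CPM count as tested. Named are the members, the 2 highest and 2 lowest genes of each pathway list, the 5 most like the members' mean on log2(CPM + 1), marker and cluster-leading genes; any others are named as picked later. Of the genes these rules name, 2 are not reported here. Members, lists and alternatives were chosen with earlier results of these data known. Positions are from mouse GENCODE release 21. Ratios and their intervals were tested on simulated Poisson counts only. These hold no spread between nuclei, mice or libraries, so that spread was not tested. Python 3.11.15, numpy 2.4.6, scipy 1.17.1, scikit-learn 1.9.0 and python-igraph 0.11.9 were used.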

Additional observations from a re-analysis of the deposited data

Results flagged for a closer look

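Some members differed between libraries in opposite directions in BA-like and EC-like nuclei, each with a 95% counting interval that leaves out 0. The difference between the classes was not tested. Denervated over untreated, the log2 ratio of Acadvl was -0.12 in BA-like and 0.67 in EC-like nuclei, that of Hadha -0.33 and 0.38, and that of Acot11 -0.39 and 1.31. Denervated over sham, Ppara had -0.20 in BA-like and 2.86 in EC-like nuclei, Acadm -1.13 and 0.40, and Hadha -0.37 and 0.65. Adipocyte-only genes had, in EC-like nuclei, a median log2 ratio of 1.51 for denervated over untreated and of 1.38 for denervated over sham, and their part in these values was not tested.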

How the results depend on the processing

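No paired analysis was possible because each condition had 1 library. Condition and library cannot be told apart, and EC-like and PC-like nuclei of the denervated library were shallow (medians of 396 and 397 UMIs).

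The median log2 ratio of the members in BA-like nuclei stayed near 0. Denervated over untreated (-0.03), it was 0.11 with all libraries clustered together, -0.10 as a mean per nucleus, 0.10 after thinning, -0.16 with brown and white adipocyte-like clusters together and 0.078 without the heat-shock-led cluster. Denervated over sham (-0.02), it was 0.047 with 500 genes as the minimum, 0.10 with libraries clustered together, 0.22 with classes from marker UMIs, -0.087 without mitochondrial UMIs in the totals, -0.11 as a mean per nucleus, 0.055 after thinning, 0.065 with brown and white together and 0.10 without the heat-shock-led clusters. Sham over untreated (-0.05), it was -0.24 with classes from marker UMIs and -0.23 with brown and white together. The cause of these shifts was not tested. Hadhb, denervated over sham, turned from 0.16 to -0.051 as a mean per nucleus.

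In the denervated library BA-like over EC-like, Hadhb was at 0.89 without removal of doublets, and Acadvl at 0.93 and Hadha at 0.95 with 500 genes as the minimum, all under 2-fold. BA-like over EC-like, the untreated median (2.10) was 2.32 at no more than 10% mitochondrial UMIs and 3.24 with ambient RNA subtracted, and the sham median (2.76) was 3.67 with ambient RNA subtracted. The denervated median (1.55) was 1.09 with 500 genes as the minimum, 1.15 without removal of doublets and 1.96 with classes from marker UMIs. It was 3.43 with ambient RNA subtracted and 0.999 after thinning. As stated above, no conclusion is drawn from the medians with ambient RNA subtracted. At 1.5-fold instead of 2-fold, 1 member was higher and 0 lower denervated over untreated, 1 higher and 1 lower denervated over sham (17.9% and 20% of all genes), and 2 higher and 1 lower sham over untreated (18.1% and 16.3%). Among 104 values of single members per pair of libraries, 22, 28 and 24 moved out of their interval without such a turn (denervated over untreated, denervated over sham, sham over untreated), as did 83 of 258 for BA-like over EC-like and 10 of 40 for Kit. Of the ratios whose interval includes 0, Acadm and Hadhb, denervated over untreated, kept their sign in 8 of 13 alternatives, and Hadha, sham over untreated, in 11 of 13. The sham library had no heat-shock-led BA-like cluster to leave out, and too few nuclei with 2 Kit UMIs. Taking brown and white together, and keeping the sham cluster while leaving out the others, were chosen after seeing the data.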
